A study of Mus musculus with 4 samples.

Results

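The interleukin-6 family genes examined here are 9 genes of 1 signalling route, namely the cytokines Il6, Il11 and Lif, the receptor chains Il6st, Il6ra, Lifr and Osmr, the transcription factor Stat3 and the feedback inhibitor Socs3. Their probe sets were taken from the platform annotation, as those assigned to 1 of these symbols and to no other gene. This gave 23 probe sets for the 9 genes, out of 45037 probe sets and 18193 genes measured. BMP3 arrays came from C3H10T1/2 cells, a mouse line described by the labels as mesenchymal stem cells, given 100 ng/ml of recombinant human BMP3, a secreted protein of the TGF-beta superfamily, for 6 hours. Control arrays came from the same line without BMP3. There were 2 arrays in each group, named as biological replicates, all from 1 cell line, and the labels name no genetic change in either group. The comparison asks which transcripts of this cytokine route differ in level after BMP3. Nothing in the labels says whether the replicates were separate cultures, so the error terms describe the spread between these arrays.

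Most cytokines of this family signal through a shared receptor chain, gp130, which is encoded by Il6st. Interleukin-6 and interleukin-11 first bind a receptor of their own, leukaemia inhibitory factor (LIF) brings gp130 together with the LIF receptor, and oncostatin M brings it together with the oncostatin M receptor. Kinases of the JAK family attached to these chains then phosphorylate STAT3, which enters the nucleus and switches on target genes, among them Socs3, whose product binds gp130 and shuts the signal down. In mesenchymal and osteoblast-lineage cells these cytokines are known for effects on bone formation and on signals to osteoclasts.

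Values are log2 intensities as deposited, and each difference is BMP3 minus control on that scale. A log2 value of 6 was used to mark dim probe sets, since it is well above the array medians of 3.36 and 3.31 (BMP3) and 3.35 and 3.40 (control). Of the 23 probe sets, 13 reached 6 on at least 1 array and 10 stayed below it on every array. Levels of different probe sets are not set against each other, because each responds to its own probes. The mesenchymal label was checked against 12 marker genes. Of the 11 measured, 10 averaged 6 or more, and Nt5e stayed below 6 on every array. Among markers of other cells, Cd14 was the only 1 of 8 macrophage genes to reach 6, while 5 of 5 lymphocyte and 5 of 6 endothelial genes stayed below it, the exception being Tek (5.78 and 6.25 in BMP3 arrays, 8.74 and 8.52 in control arrays). Pecam1 and Cdh5, which define endothelial cells, were under 2.4 on every array. Of the epithelial markers, 4 of 6 stayed below 6, the others being Krt5 (6.01 and 6.08 in BMP3 arrays, 5.63 and 5.96 in control arrays) and Epcam (9.63 and 9.49 in BMP3 arrays, 9.37 and 9.56 in control arrays). RNA spiked in before labelling differed along the treatment, with 12 of 12 poly-A spike-in probe sets lower on average in BMP3 arrays. Their mean was 6.46 and 6.50 in BMP3 arrays, against 7.76 and 6.89 in control arrays. The part of the spike-in difference in the results below was not tested.

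Il6st, Osmr, Lifr, Stat3 and Socs3 had lower averages in BMP3 arrays at their brighter probe sets. Among the cytokines, Il11 had a higher average with wide spread. So did Lif 1421207_at and Il6, but both were dim on every array. Both BMP3 arrays lay below both control arrays at 12 of the 23 probe sets (52.2%), where 23.3% of all probe sets did so, and these came from Il6st, Lifr, Osmr, Stat3 and Socs3. Of the 12, 3 were dim on every array. The 23.3% covers many dim probe sets, and no share over brighter ones alone is given for this rule. In RNA from whole cultures, less transcript per cell and fewer cells that carry it cannot be told apart. No member had both BMP3 arrays above both control arrays (0 of 23, against 12.9% of all probe sets). By limma's test, with p-values adjusted by Benjamini-Hochberg across the 45037 probe sets, 0 of the 23 passed an adjusted p of 0.05, as was so for 0% of all probe sets, and the smallest adjusted p of a member was 0.213. At an unadjusted p under 0.05 the test counted 7 of the 23 (30.4%), all lower in BMP3 arrays, against 8.39% of all probe sets in either direction. When a 1.5-fold difference was also required, 5 of the 23 were lower (21.7%, against 2.00% of all) and 0 were higher (against 0.808%). Those 5 all averaged 6 or more, whereas the shares over all probe sets include many dim ones. When the 17152 probe sets averaging 6 or more were tested alone, 847 were lower and 367 higher by this rule. Over all 23 probe sets 4 differences were positive and 19 negative (8 and 15 under median centring), with a median of -0.29, where 62.9% of all probe sets (50.2% of those averaging 6 or more) were negative and their median was -0.02. Probe sets of 1 gene read the same transcripts, so they are not separate observations. The members were chosen with earlier results of these data known, so their shares beside those of all probe sets are a description only.

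Promoter sequence is shown for Socs3, Osmr and Il11, which stand for the feedback inhibitor, the receptor with the largest difference at its brightest probe set, and the cytokine that reached a log2 value of 6. The windows ran from 250 bases before to 50 bases after the gene start, from RefSeq on GRCm38.p6, and all 9 genes were matched, with 11 windows in all since Il11 and Lifr had 2 starts each. Capitals mark matches to 5 short motifs searched on both strands: TTCNNNGAA for STAT factors, TGANTCA for AP-1, TTGCNNAA for C/EBP, GGGA followed by any 4 bases and CC for NF-kB and TGACGTCA for CREB. The Socs3 window lies at chr11:117969317-117969616 on the minus strand, the Osmr window at chr15:6874264-6874563 on the minus strand and the Il11 window at chr7:4778092-4778391 on the minus strand.
Socs3: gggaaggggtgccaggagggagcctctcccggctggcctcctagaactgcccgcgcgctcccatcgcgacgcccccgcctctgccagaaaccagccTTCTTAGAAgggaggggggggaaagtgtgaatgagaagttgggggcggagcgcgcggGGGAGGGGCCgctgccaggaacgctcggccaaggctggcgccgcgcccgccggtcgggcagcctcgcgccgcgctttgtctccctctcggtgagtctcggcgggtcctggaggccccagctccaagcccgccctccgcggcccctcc
Osmr: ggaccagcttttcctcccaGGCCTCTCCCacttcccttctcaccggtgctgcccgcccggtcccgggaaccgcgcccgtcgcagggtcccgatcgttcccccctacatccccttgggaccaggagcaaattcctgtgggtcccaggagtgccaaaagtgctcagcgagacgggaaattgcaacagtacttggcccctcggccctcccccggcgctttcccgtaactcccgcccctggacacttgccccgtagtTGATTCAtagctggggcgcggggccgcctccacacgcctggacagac
Il11: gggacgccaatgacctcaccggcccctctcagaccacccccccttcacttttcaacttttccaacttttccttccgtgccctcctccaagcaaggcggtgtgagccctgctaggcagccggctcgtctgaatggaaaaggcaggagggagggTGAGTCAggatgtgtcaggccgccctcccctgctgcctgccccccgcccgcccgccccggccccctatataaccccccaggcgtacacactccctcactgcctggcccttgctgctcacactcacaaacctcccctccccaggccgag
In the Socs3 window the STAT letters matched 154 bases before the start and the NF-kB letters 97 bases before it. Among the 11 windows of the family only that of Socs3 held the STAT letters, which 8.3% of all 32851 promoter windows hold. The AP-1 letters were found in 4 windows, of Il6, Il11, Lif and Osmr, against 7.81% of all windows. Those of NF-kB were found in 7 windows, of Il6, Lif, Il6ra, Lifr, Osmr and Socs3, against 20.7% of all. The C/EBP letters were in the Il6 window alone (10.8% of all) and the CREB letters in 0 of 11 (1.79% of all). The STAT and NF-kB letters have no overlap in the Socs3 window. A match describes letters in the window and is not evidence of a bound factor.

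Il6st, the gp130 chain that most cytokines of the family share, was lower in both BMP3 arrays than in both control arrays at each of its 3 brighter probe sets. Probe set 1437303_at read 12.78 and 12.58 in BMP3 arrays, against 12.95 and 13.00 in control arrays, a difference of -0.29 (SE 0.09, 95% interval -0.57 to -0.01, limma adjusted p = 0.576). Probe set 1452843_at read 11.68 and 11.54 in BMP3 arrays and 12.10 and 12.16 in control arrays, a difference of -0.52 (SE 0.07, interval -0.72 to -0.31, adjusted p = 0.297). In both, the arrays of a group lay close together and the gap between groups was under 1 log2 unit. The third, 1460295_s_at, differed far more, at 6.94 and 7.17 in BMP3 arrays against 9.03 and 9.27 in control arrays. Its difference was -2.09 (SE 0.14, interval -2.51 to -1.67, adjusted p = 0.213), which corresponds to a 4.27-fold lower level in BMP3 arrays. The interval of this probe set does not overlap those of the other 2, so the size of the Il6st difference depends on which probes are read. In the maker's naming, the suffix _s_at marks probes shared by several transcripts. The fourth, 1421239_at, which is annotated with the same accession as 1460295_s_at, read 1.95 and 1.89 in BMP3 arrays and 1.92 and 1.90 in control arrays, near the bottom of the scale. Across the 3 brighter probe sets the mean was 10.47 and 10.43 in BMP3 arrays and 11.36 and 11.47 in control arrays, a difference of -0.97.

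Osmr, which encodes the oncostatin M receptor that pairs with gp130, had the largest difference of any member's brightest probe set. Probe set 1418674_at read 11.13 and 10.59 in BMP3 arrays, against 12.54 and 12.09 in control arrays. The groups were separated by nearly 1 log2 unit, and the difference was -1.45 (SE 0.28, interval -2.31 to -0.59, limma adjusted p = 0.391), a 2.73-fold lower level. With single arrays left out it ran from -1.72 to -1.18. The other 2 probe sets of Osmr, 1459217_at and 1418675_at, stayed under 2.6 on every array, although 1418675_at is annotated with the same accession as the bright one. Osm itself, the gene of the cytokine that this receptor binds, was dim in both groups (2.29 and 2.27 in BMP3 arrays, 2.29 in both control arrays).

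Lifr, which encodes the LIF receptor, had lower values in both BMP3 arrays at its brightest probe set, with a wide gap between the BMP3 arrays themselves. Probe set 1454984_at read 10.74 and 9.66 in BMP3 arrays, against 11.39 and 10.94 in control arrays. The difference was -0.96 (SE 0.46, interval -2.39 to 0.47, limma adjusted p = 0.794), so the interval includes 0. BMP3 replicate 2 was the lowest array, and without it the difference was -0.42, against -1.50 without BMP3 replicate 1. The same array set apart a second probe set, 1425107_a_at, at 6.25 and 3.97 in BMP3 arrays and 6.26 and 6.18 in control arrays. Its groups overlapped, and the difference of -1.11 (SE 0.90, adjusted p = 0.885) became 0.03 without BMP3 replicate 2. The third, 1450207_at, read under 2.2 on every array.

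Il6ra, the receptor that binds interleukin-6 itself, was dim. Probe set 1452416_at read 3.77 and 3.34 in BMP3 arrays, against 5.85 and 3.37 in control arrays, so that control replicate 1 alone stood above the other 3. No fold is given for values below 6 in both groups. Probe set 1422270_a_at read 2.31 to 2.37 over the 4 arrays.

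**Figure D1:**
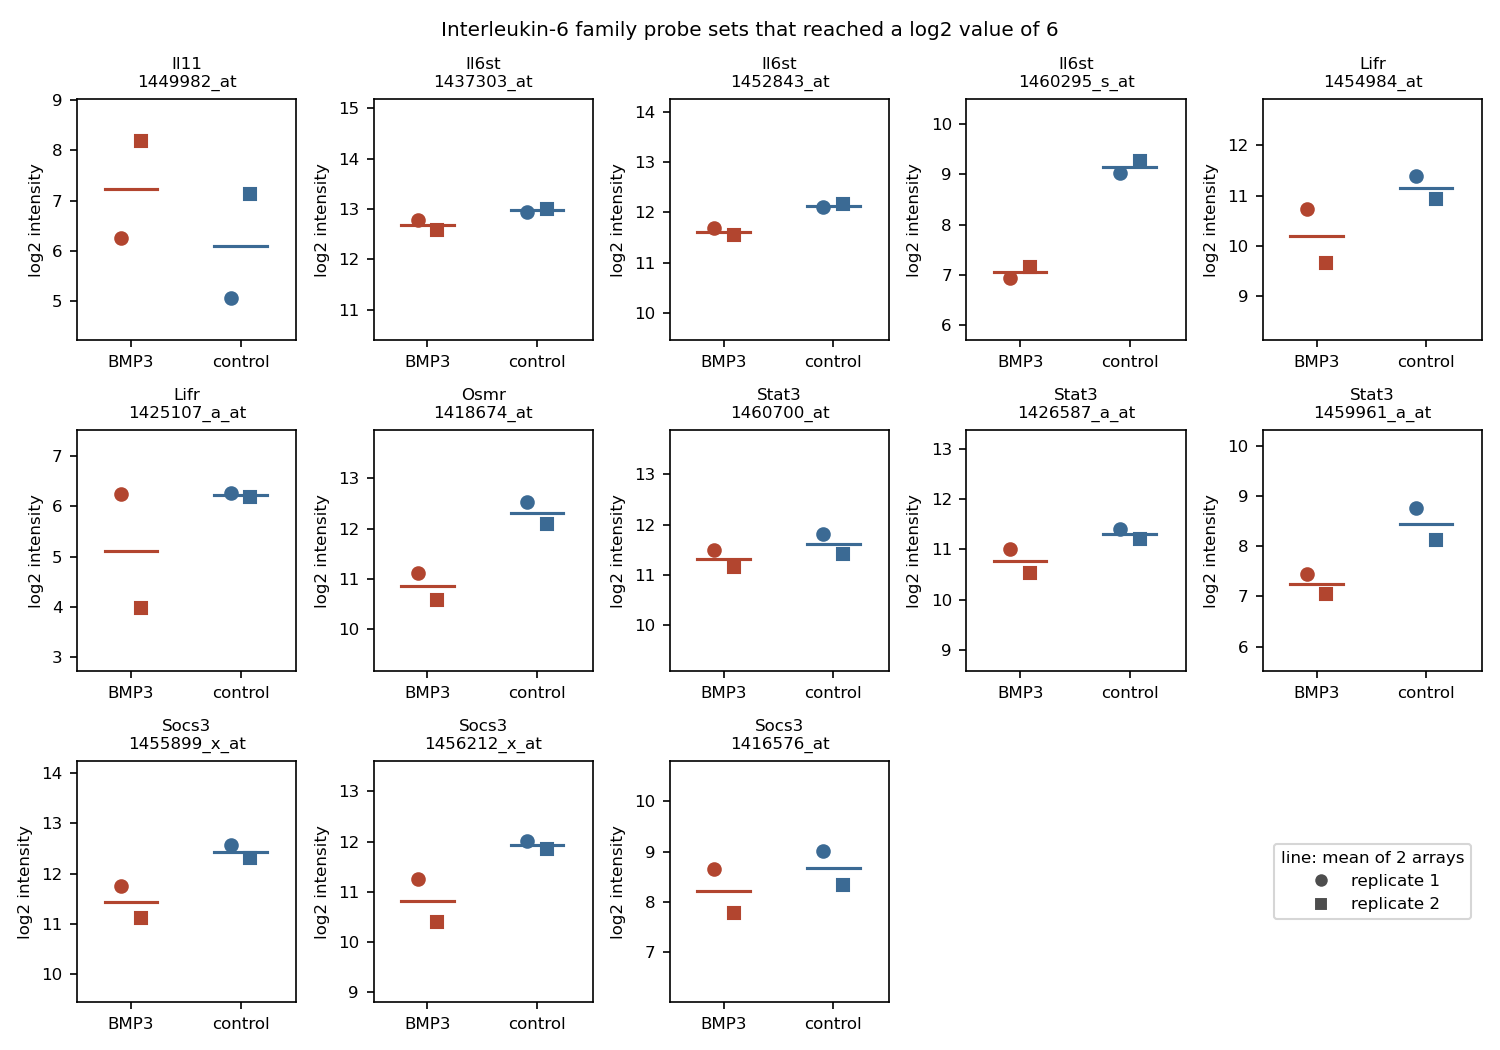
Log2 intensity of each probe set of the family that reached 6 on at least 1 array, with BMP3 arrays on the left of each panel and control arrays on the right. Circles are replicate 1, squares replicate 2 and lines the mean of 2 arrays; every panel spans the same number of log2 units. BMP3 points lie below control points for Il6st, for Osmr, for Lifr 1454984_at and for 2 of 3 Stat3 and 2 of 3 Socs3 probe sets. For Il11 the replicates of a group lie about 2 units apart.

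Stat3, the transcription factor that carries the signal to the nucleus, had lower averages in BMP3 arrays at each of 3 brighter probe sets, with 95% intervals that overlapped one another. Probe set 1460700_at read 11.49 and 11.16 in BMP3 arrays, against 11.80 and 11.42 in control arrays, and the groups overlapped (difference -0.29, SE 0.20, limma adjusted p = 0.875). Probe set 1426587_a_at read 11.01 and 10.54 in BMP3 arrays and 11.41 and 11.21 in control arrays, with no overlap (difference -0.54, SE 0.21, adjusted p = 0.677). Probe set 1459961_a_at read 7.46 and 7.06 in BMP3 arrays, against 8.76 and 8.13 in control arrays. This last difference, -1.19 (SE 0.30, interval -2.11 to -0.27, adjusted p = 0.48), was the largest of the gene and its interval excluded 0, while those of the other 2 included it. The maker's suffix _a_at marks probes that read several transcript forms of 1 gene. With single arrays left out, 1460700_at ran from -0.48 to -0.10 and 1459961_a_at from -1.51 (without control replicate 2) to -0.88 (without control replicate 1). The fourth, 1424272_at, read 2.30 to 2.36 on all arrays.

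Socs3, the feedback inhibitor of gp130 signalling and a target gene of STAT3, was lower in both BMP3 arrays at 2 of its 3 probe sets. Probe set 1455899_x_at read 11.75 and 11.12 in BMP3 arrays, against 12.57 and 12.30 in control arrays, a difference of -1.0 (SE 0.27, interval -1.85 to -0.16, limma adjusted p = 0.509). Probe set 1456212_x_at read 11.25 and 10.40 in BMP3 arrays and 12.01 and 11.86 in control arrays, a difference of -1.11 (SE 0.34, interval -2.17 to -0.04, adjusted p = 0.574). These correspond to 2.01-fold and 2.15-fold lower levels. The suffix _x_at marks probe sets with some probes that can also bind similar sequences elsewhere. Probe set 1416576_at, which lacks that suffix, read 8.65 and 7.79 in BMP3 arrays and 9.02 and 8.33 in control arrays. Its groups overlapped, and its difference of -0.45 (SE 0.44, adjusted p = 0.899) had an interval from -1.82 to 0.91. BMP3 replicate 2 was the lowest array at all 3 probe sets. Without it their differences were -0.69, -0.68 and -0.02, against -1.32, -1.53 and -0.89 without BMP3 replicate 1.

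The cytokines were either dim or variable between replicates. Il11, which in mesenchymal cells is known as an inducer of osteoblast formation, read 6.26 and 8.18 in BMP3 arrays (replicates 1 and 2), against 5.06 and 7.13 in control arrays. The groups overlapped, and the replicates of each group lay about 2 log2 units apart, with replicate 2 the higher in both. The difference was 1.13 (SE 1.12, interval -2.33 to 4.59, limma adjusted p = 0.903). It was 0.17 when BMP3 replicate 2 was dropped and 0.09 when control replicate 1 was, but 2.09 without BMP3 replicate 1 and 2.16 without control replicate 2. In a paired fit, with a term for the replicate number, the Il11 difference of 1.13 had an SE of 0.07 (limma adjusted p = 0.136). The labels do not say that this number marks a shared batch. Lif, a cytokine that acts through Lifr and gp130, stayed below 6 at probe set 1421207_at, with 4.33 and 5.32 in BMP3 arrays and 3.46 and 4.47 in control arrays. The groups overlapped there by a small margin, and again replicate 2 was the higher in both. Il6 read 2.99 and 4.33 in BMP3 arrays, against 3.15 and 3.23 in control arrays, so that only BMP3 replicate 2 stood above the rest. No fold is given for Lif or Il6, since both groups were dim. The second Lif probe set, 1450160_at, read 2.13 to 2.18 on all arrays, although it carries the same accession as the first. In all, 7 of the 23 probe sets stayed under 3 on every array, between 1.89 and 2.59, with differences of -0.05 to 0.01.

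**Figure D2:**
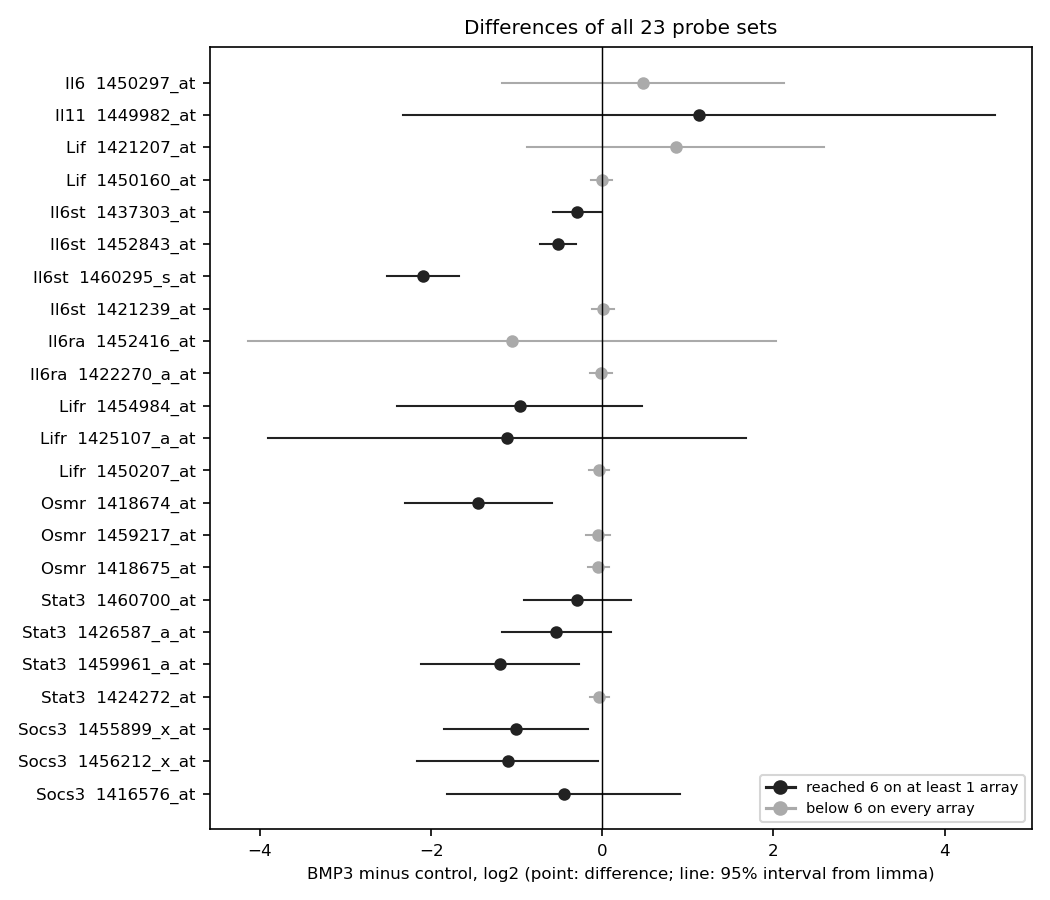
BMP3 minus control difference of all 23 probe sets on the log2 scale, with the 95% interval from limma, in the order cytokines, receptor chains, Stat3 and Socs3. Black marks probe sets that reached 6 on at least 1 array and grey those below 6 throughout. Intervals of Il6st 1460295_s_at, Il6st 1452843_at and Osmr 1418674_at lie well to the left of 0, and that of Il11 runs from -2.33 to 4.59.

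**Figure D3:**
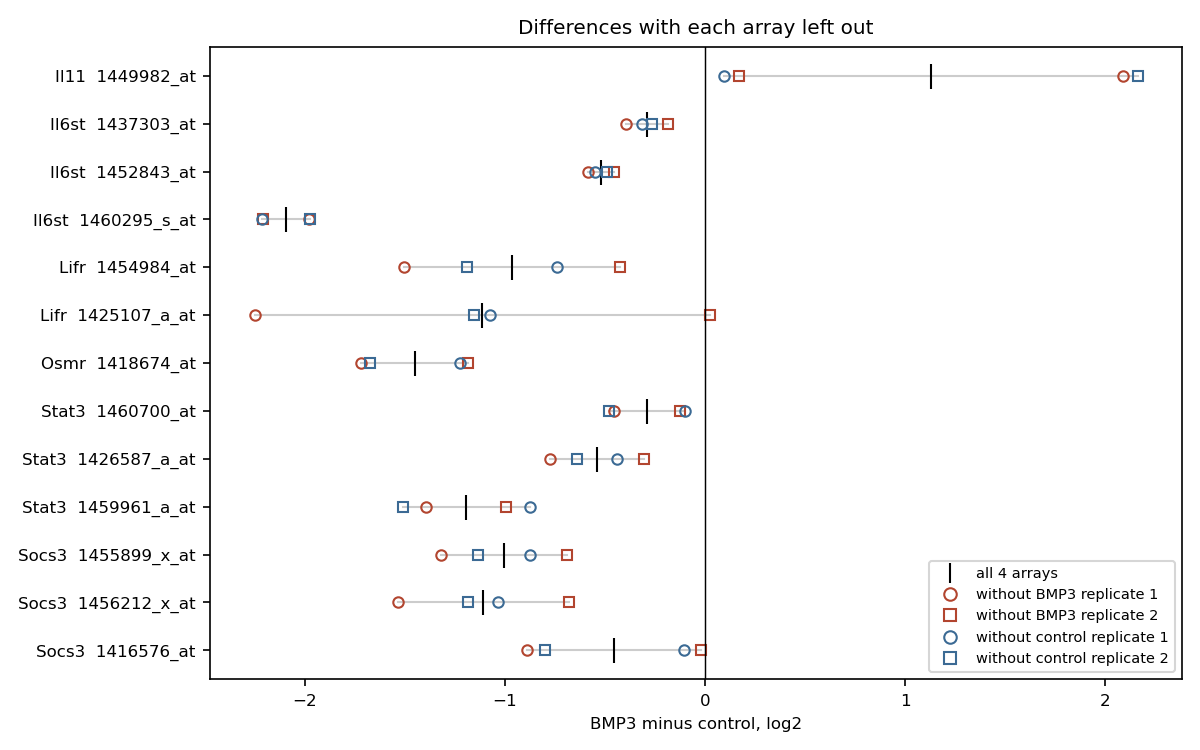
Differences of the 13 probe sets that reached 6, with all 4 arrays (black tick) and with each array left out in turn (open symbols), on the log2 scale. The 3 Il6st probe sets moved least, from -2.21 to -1.97 in the case of 1460295_s_at. Il11 ran from 0.09 to 2.16 and Lifr 1425107_a_at from -2.25 to 0.03.

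Leaving out arrays showed which member differences rested on single arrays. Il6st kept its direction, with ranges of -0.39 to -0.19, -0.58 to -0.45 and -2.21 to -1.97 at its 3 brighter probe sets. The 2 Socs3 probe sets with the suffix _x_at, and Osmr, stayed at -0.68 or lower. Among the 13 probe sets that reached 6, Lifr 1425107_a_at was the only one to turn direction. Dropping control replicate 1 brought the median over all 23 to -0.10 and dropping BMP3 replicate 2 to -0.13, whereas it was -0.45 with BMP3 replicate 1 dropped and -0.48 with control replicate 2 dropped. As a measure of RNA quality, the 3′ minus 5′ log2 value of Gapdh was -0.09 and -0.44 in BMP3 arrays, against -0.55 and -0.56 in control arrays. That of Actb overlapped between the groups (0.73 and 0.38 in BMP3 arrays, 0.48 and 0.39 in control arrays). The 3 control probe sets of 18S ribosomal RNA were lower in both BMP3 arrays than in both control arrays, with differences of -1.87 to -1.20. The part of these measures in the member differences was not tested.

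Other genes of the route were described from 7 lists, with 1 probe set per gene, the brightest. For comparison, 42.4% of all 18193 genes had positive and 57.6% negative differences, the median being -0.01, and 0 genes of any list passed an adjusted p of 0.05. Among the other ligands, 1 of 5 was higher and 4 lower (median -0.01), and 3 were dim. Ctf1, the gene of cardiotrophin 1, read 8.75 and 8.94 in BMP3 arrays and 9.31 and 9.71 in control arrays (difference -0.66, SE 0.18, limma adjusted p = 0.511). Clcf1, a ligand of the ciliary neurotrophic factor receptor, had -0.34 ± 0.46 (difference ± SE), and Il31 was dim. Of the other receptors, Cntfr, Il27ra and Il31ra, all 3 measured were under 3 on every array.

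The kinases and adaptors that relay the signal showed 6 of 9 higher and 3 lower (median 0.07, and 0.02 without BMP3 replicate 1). The kinase genes Jak1 and Jak2 had differences of 0.07 ± 0.12 and 0.26 ± 0.19, and Tyk2 0.23 ± 0.15, with overlapping groups for each of the 3. Those values were named after they were seen. Gab1, a docking protein downstream of gp130, had the largest difference of this list, with 9.67 and 9.54 in BMP3 arrays against 10.02 and 10.38 in control arrays (-0.60, SE 0.16, limma adjusted p = 0.496). The adaptor gene Shc1 had 0.23 ± 0.11, the phosphatase gene Ptpn11, whose product SHP2 binds gp130, 0.28 ± 0.15, and the exchange factor gene Sos1 -0.09 ± 0.05.

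Of 5 other STAT genes, 2 were higher and 3 lower (median -0.04, and 0.26 without BMP3 replicate 2). Stat6, the factor of interleukin-4 signalling, had 0.13 ± 0.12, Stat5b 0.08 ± 0.20 and Stat2, of the interferon route, -0.09 ± 0.07, while Stat4 was dim. Inhibitors of JAK-STAT signalling were split, with 7 of 14 higher and 7 lower (median 0.00, and -0.21 without BMP3 replicate 1). Among them Socs6 read 10.53 and 10.30 in BMP3 arrays and 10.88 and 10.84 in control arrays (difference -0.45, SE 0.10, limma adjusted p = 0.439). Cish, an inhibitor induced by STAT5, went the other way, with 7.05 and 6.70 in BMP3 arrays and 6.45 and 6.42 in control arrays (0.44, SE 0.14, adjusted p = 0.591). Socs4 had -0.27 ± 0.12 and Socs7 -0.21 ± 0.09.

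Target genes of STAT3 also went both ways, as 12 of 24 were higher and 12 lower. Their median was 0.00 (0.04 under median centring, -0.02 without control replicate 1, 0.12 over probe sets averaging 6 or more). With all genes of the list it fell between the dim genes Icam1 and Lcn2. The list was chosen from general knowledge but with earlier results of these data known, and most of its genes respond to other factors too. Fos, an AP-1 subunit, was lowest relative to control, at 9.75 and 9.51 in BMP3 arrays against 11.26 and 11.23 in control arrays (difference -1.62, SE 0.10, limma adjusted p = 0.213). Timp1, an inhibitor of matrix metalloproteinases, read 14.33 and 14.62 in BMP3 arrays and 13.67 and 13.53 in control arrays (0.87, SE 0.13, adjusted p = 0.327). Birc5, the gene of survivin, had 0.84 ± 0.16 and Ccnd1, the gene of cyclin D1, 0.53 ± 0.11. At an unadjusted limma p under 0.05 there were 9 of the 24, of which 4 were higher and 5 lower. Of all probe sets, 8.39% passed that threshold in either direction. The other 5 of the 9 genes, named here after their values were seen, were Bcl2l1 (0.37 ± 0.08), Cebpd (-1.07 ± 0.24), Arid5b (-0.20 ± 0.05), Bcl3 (-0.86 ± 0.21) and Hif1a (-0.42 ± 0.12). Groups did not overlap at any of them, which their choice by p makes likely and which is no separate result. Lcn2, Saa3, Icam1 and Gfap, likewise picked out for their level, were among 5 genes of the list that were dim on every array.

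Regulators of the Il6 and Lif transcripts, which include NF-kB subunits and inhibitors, the factors Atf3 and Creb1 and RNA-binding proteins, had 9 of 16 higher and 7 lower (median 0.11, but -0.07 without BMP3 replicate 2 and 0.00 without control replicate 2). Nfkb2 read 9.98 and 10.06 in BMP3 arrays, against 9.11 and 8.96 in control arrays (difference 0.99, SE 0.07, limma adjusted p = 0.222). Its partner Relb had 0.68 ± 0.15 and Rela 0.44 ± 0.09. Zfp36l1, whose product promotes decay of messenger RNAs with AU-rich elements, read 12.73 and 12.47 in BMP3 arrays and 13.45 and 13.18 in control arrays (-0.71, SE 0.16, adjusted p = 0.424).

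**Figure D4:**
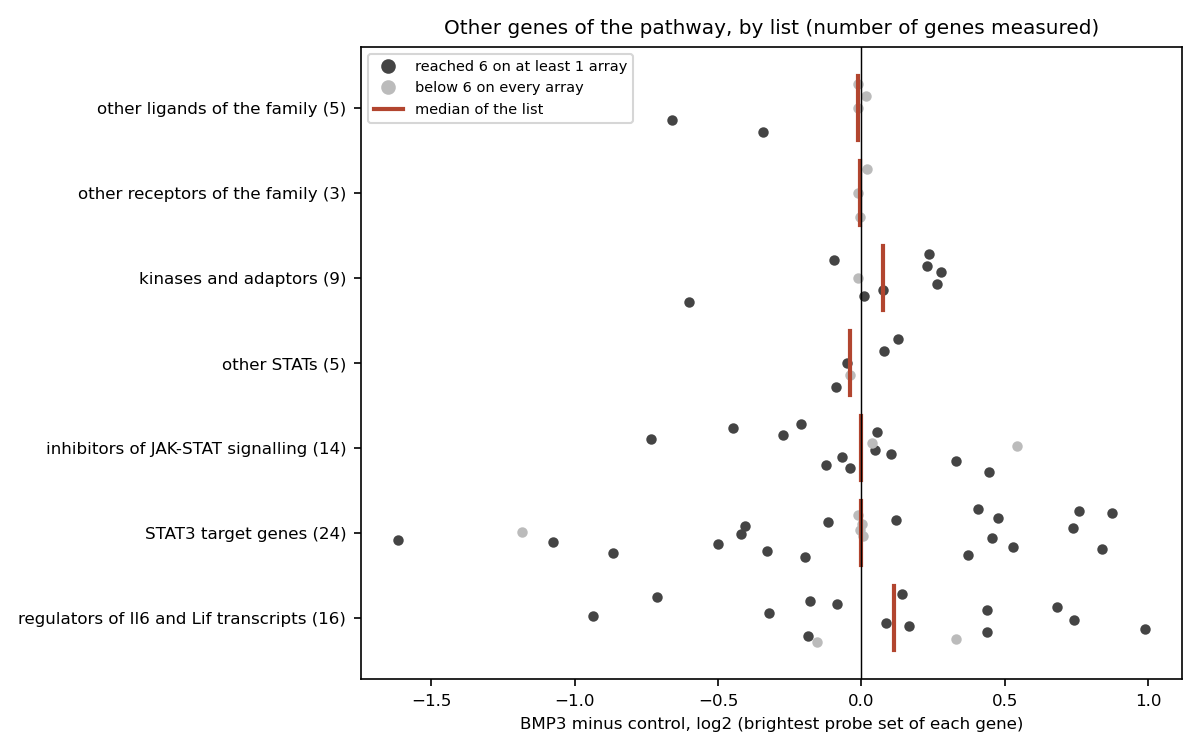
BMP3 minus control difference of each measured gene in the 7 pathway lists, on the log2 scale, for the brightest probe set of each gene. Dark points reached 6 on at least 1 array, grey points did not, and red bars are list medians. The medians lie between -0.04 and 0.11, while single genes run from -1.62 (Fos) to 0.99 (Nfkb2).

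The genes outside these lists with profiles nearest to Osmr and Il11 were found among 9185 genes averaging 6 or more, by the root mean square distance between centred log2 values over the 4 arrays. Nearest to Osmr were Notch3 (distance 0.08, difference -1.40 ± 0.32), Zfp979 (0.10, -1.30 ± 0.35) and Lmo7 (0.10, -1.44 ± 0.38). Nearest to Il11 were Gm15867 (0.14, 1.20 ± 0.97), Sertad4 (0.14, 0.89 ± 1.11) and Ttll5 (0.17, 0.81 ± 1.17), which share with Il11 a higher value in replicate 2 of each group. With 4 arrays such likeness is a description only.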

How the data were processed

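Biotin-labelled total RNA of 4 samples was hybridised to Affymetrix 3′ arrays, per the labels' protocols. The authors deposited 1 value per probe set and array, read here as log2 intensity from its range. If the base were another, every fold would change. The submitters' processing notes name Partek alone. How background, normalization and probe summary were handled is not given in the sources used here, and a normalization that equalises arrays can hide a general shift.

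Values were used as deposited after 64 control probe sets were left out. Symbols came from the platform annotation: 34945 probe sets carried 1 symbol, 932 several and 9160 none. Of 123 list entries, 11 had no probe set annotated to them alone and were not analysed here. Two-sided tests used limma 3.58.1 (R 4.3.3, lmFit and eBayes) on all 45037 probe sets, with Benjamini-Hochberg adjustment, a threshold of 0.05 and no term for the replicate number, since the labels do not say that it marks a shared batch. The fit was tested on simulated data. The 2 arrays per group limit precision. Members and lists were chosen with earlier results of these data known.

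Named genes were all 9 members, up to 4 genes of smallest p per pathway list, and 3 nearest profiles for each of the 2 members with the largest difference at a brightest probe set averaging a log2 value of 6 or more. Cell type markers that stood apart were named after their values were seen, as were the exceptions marked in the text. Alternatives were single arrays left out, the replicate block, median centring, quantile normalization, cyclic loess, a test of probe sets averaging 6 or more only, an intensity trend in the prior, a linear-scale offset of 16 and the mean of a gene's probe sets.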

Additional observations from a re-analysis of the deposited data

How the results depend on the processing

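The count past an adjusted p of 0.05 was 0 in limma's fit with all 4 arrays and under each alternative, where the smallest adjusted p of a member was 0.136. Of the recomputed differences of the 13 probe sets that reached 6 on at least 1 array, 147 kept their direction and 1 did not. Part of the 147 was fixed in advance. The replicate block, the intensity trend and the test of brighter probe sets alone leave each difference unchanged. So does the mean of brighter probe sets where a gene has only 1. Lifr 1425107_a_at ran from -2.25 to 0.026 with single arrays left out. The value above 0 was that without BMP3 replicate 2, which read 3.97 there. Member probe sets below 6 on every array enter only the counts and medians that follow. Members had 16 to 20 negative and 3 to 7 positive probe sets with single arrays left out, and a median of -0.48 to -0.10. Over probe sets averaging 6 or more, by construction a smaller set, 11 members were lower and 1 higher (median -0.75), where 50.2% of all 17152 such probe sets were lower. Median centring gave 15 lower and 8 higher. The probe sets that changed direction there read under 3 on every array, with differences of -0.04 to -0.01 before centring. Over all probe sets, the count at unadjusted p and 1.5-fold was 742 to 1407 lower and 329 to 870 higher with single arrays left out, including 625 higher without BMP3 replicate 2, against 901 and 364. With the replicate number as a block (the paired fit) it was 1481 lower and 683 higher. Same-numbered arrays deviated together (r = 0.60 over 17152 probe sets that are themselves not independent), which is a hint from the data and not part of the design. In the replicate block fit no member passed. The smallest member adjusted p was 0.136 there, shared by Il11, Osmr, Il6st 1460295_s_at and Stat3 1459961_a_at. Of 142 recomputed list medians, 104 moved by no more than 1 replicate SD. These include the medians under the replicate block and the intensity trend, which cannot move because neither setting changes a difference. Averaging a gene's brighter probe sets, an alternative chosen after seeing the data, gave -0.97 for Il6st, -0.67 for Stat3 and -0.85 for Socs3. Fits of 3 arrays leave 1 residual degree of freedom and assume that the lone array varies like the other group.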
